A study of Arabidopsis thaliana with 12 samples.

Results

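PRK (AT1G32060), SBPASE (AT3G55800) and AT3G47650, the Rubisco assembly chaperone BSD2, were examined in wild type and in the psbs mutant of Arabidopsis thaliana. They were taken as the features that the platform annotation assigns to 1 single gene of these names. Each gene had 1 such feature, so 3 of the 692 features of a single gene, and of the 3439 features of the array, were described. The array had been hybridized with total RNA of 12 samples, 6 labelled WT and 6 labelled psbs. Both groups are of ecotype Columbia 0, and the labels describe the mutant as lacking the protein PSII-S, known as PsbS. They give no allele, tissue, age, growth light, treatment or source of the replicates. A p-value therefore covers the spread among these samples alone, and that spread may be technical.

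The Calvin cycle fixes CO2 in the chloroplast stroma with ATP and NADPH made by the light reactions. Rubisco adds CO2 to ribulose bisphosphate, and the remaining enzymes reduce the product and rebuild the acceptor. Phosphoribulokinase, encoded by PRK, makes ribulose bisphosphate in the last step of that rebuilding. Sedoheptulose bisphosphatase, encoded by SBPASE, acts earlier in the same branch. Both enzymes are switched on in the light through thioredoxin. BSD2 is a small stromal protein with a zinc finger like that of DnaJ chaperones, and it holds the large subunits of Rubisco until the small subunits bind. PsbS senses the acidity of the thylakoid lumen and is needed for the rapid release of excess absorbed light as heat. The genes for these proteins are nuclear, except that for the Rubisco large subunit.

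PRK and AT3G47650 were brighter in every psbs sample than in any WT sample, while SBPASE was at or near 0 throughout. The authors deposited linear intensities between 0 and 100, and how they were made is not given in the sources used here. The intensity of PRK was 1.55, 1.68, 1.46, 1.45, 1.59 and 1.81 in WT replicates 1 to 6. In psbs replicates 1 to 6 it was 17.9, 17.4, 10.5, 9.56, 11.3 and 11.5. The lowest psbs value was 5.28 times the highest WT value, and psbs replicates 1 and 2 lay above the other psbs samples. The intensity of AT3G47650 was 1.205, 1.05, 0.855, 0.887, 0.772 and 0.785 in WT replicates 1 to 6. It was 5.62, 5.86, 3.69, 3.89, 3.22 and 3.42 in psbs replicates 1 to 6. Its groups did not overlap either, the lowest psbs value being 2.68 times the highest WT value, and again psbs replicates 1 and 2 were the highest. Of the 3359 features above 0 in at least 1 sample, 5.84% had all psbs intensities above all WT intensities, and 67.3% had all of them below.

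**Figure D1:**
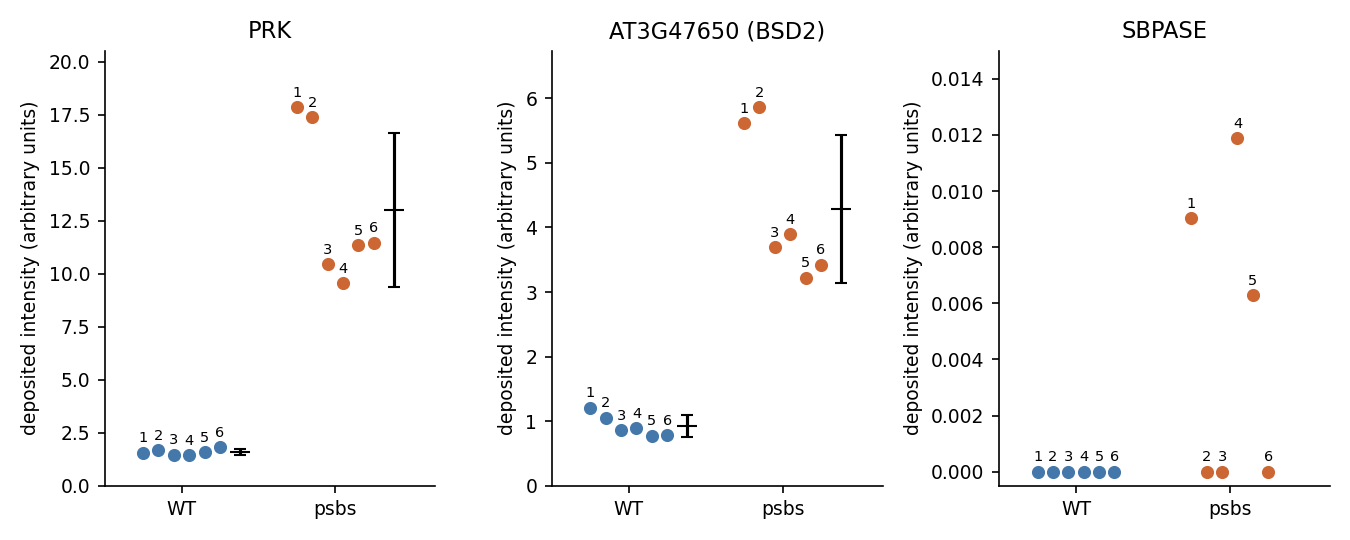
Deposited intensity (arbitrary units, linear axes starting at or just below 0) of the 3 genes in each sample; numbers are replicate numbers, and the black marks for PRK and AT3G47650 are the mean and SD of 6 samples. PRK and AT3G47650 have no overlap between WT and psbs, and SBPASE is above 0 in 3 psbs samples.

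In WT the table lists SBPASE at 0 in every sample. In psbs it was at 0.00902 in replicate 1, 0.0119 in replicate 4 and 0.00629 in replicate 5, and was listed at 0 in replicates 2, 3 and 6. In replicates 1, 4 and 5 only 9.05%, 10.3% and 6.02% of the features above 0 were dimmer. Being at 0 in all WT samples was not rare on this array. It held for 369 features, 10.7% of the table, and 63 of them, 17.1%, were above 0 in exactly 3 psbs samples as SBPASE was. SBPASE is known as a strongly expressed gene of leaves, and the meaning of a 0 in the table is unknown, so it is given as listed and not as a missing transcript.

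Place within a sample needs no scaling between samples, but it reflects how well a feature hybridizes as well as how much transcript there is. Both PRK and AT3G47650 moved towards the bright end of the array in psbs. Counted from the brightest feature, PRK stood at place 321, 284, 292, 292, 231 and 200 in WT replicates 1 to 6. In psbs replicates 1 to 6 it stood at 36, 37, 46, 48, 43 and 43. AT3G47650 stood at place 466, 536, 596, 585, 606 and 610 in WT. In psbs it stood at 76, 76, 104, 101, 106 and 102. SBPASE had no place in WT, and stood at 2091, 2202 and 2358 in psbs replicates 1, 4 and 5. Among the 692 features of a single gene, PRK went from places 45 to 67 in WT to places 6 to 9 in psbs. AT3G47650 went from places 92 to 120 to places 12 to 17.

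As a percentile, meaning the share of all features that were dimmer in the same sample, PRK averaged 92.1% ± 1.31 over the WT samples and 98.8% ± 0.139 over the psbs samples (SD, n = 6 for each group). The difference was 6.62 percentage points ± 1.14 (SE), with a limma adjusted p of 0.000498 over 3359 features. AT3G47650 averaged 83.5% ± 1.63 and 97.3% ± 0.412 (SD, n = 6 for each group), a difference of 13.7 points ± 1.21 (SE; limma adjusted p = 1.76e-06). In this fit 21.5% of features were called higher at an adjusted p under 0.05 and 28.4% lower. The call of PRK was lost when consecutive replicate numbers were averaged (limma adjusted p = 0.0537). A feature near the top can gain few points, and 35.8% of features had a larger gain in percentile than PRK. For AT3G47650 this share was 25.7%. SBPASE differed by 17.8 points and did not pass (limma adjusted p = 0.0750), with an interval from 0.959 to 34.6 points.

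The change of place can also be given as the features it passed, which follows from the places and is no separate result. In all 6 WT samples 193 features were brighter than PRK, and 148 of these, 76.7%, were dimmer than PRK in all 6 psbs samples. In all 6 psbs samples 31 features were brighter than PRK. The 30 features on both lists were 15.5% of the WT list and 96.8% of the psbs list. Of the 420 features brighter than AT3G47650 in every WT sample, 318, or 75.7%, were dimmer than it in every psbs sample.

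The curve of intensity against place also differed between the groups. At place 50 the intensity was 6.64 to 8.11 in WT and 9.11 to 10.8 in psbs, and at place 500 it was 0.893 to 1.14 in WT and 0.276 to 0.305 in psbs. PRK and AT3G47650 therefore moved along a curve that was itself steeper in psbs. The psbs samples were dimmer over most of the array, with medians of 0.0233 to 0.0361 against 0.304 to 0.379 in WT, and 27.0% to 34.9% of features at 0 against 13.0% to 13.7%. These differences coincide with the groups, and their part in the results for PRK and AT3G47650 was not tested. In RNA of whole samples, fewer cells of a type and less RNA per cell cannot be told apart.

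**Figure D2:**
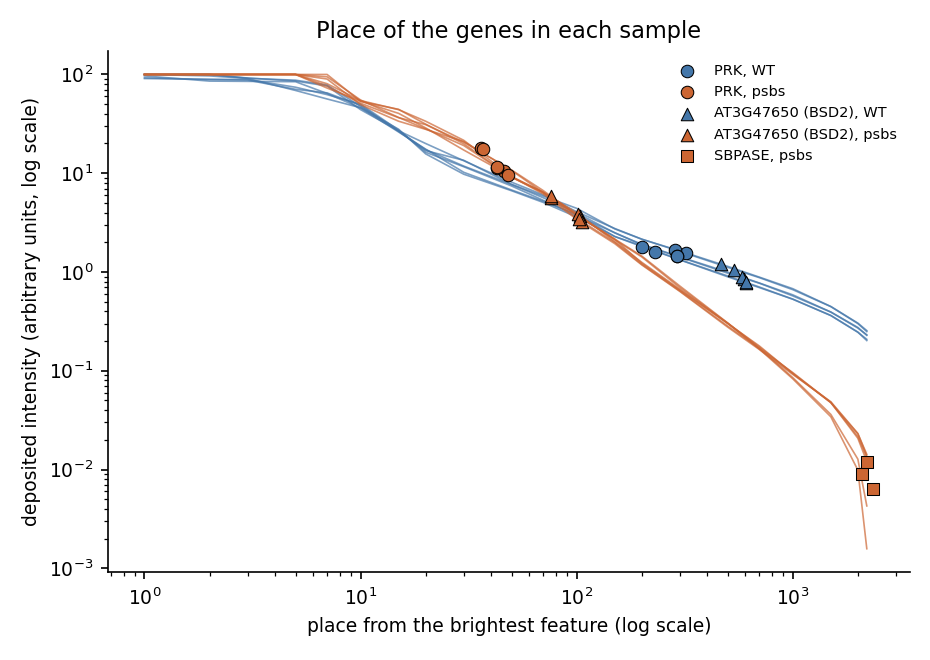
Deposited intensity against place from the brightest feature (both axes logarithmic); each line is 1 sample, blue for WT and orange for psbs, and the symbols are the 3 genes where they were above 0. PRK lies at places 200 to 321 in WT and 36 to 48 in psbs, and AT3G47650 at 466 to 610 and 76 to 106.

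The comparison of psbs with WT asks which transcripts differ in level when PsbS is missing. Because the column medians differed by up to 16.3-fold, the columns were quantile scaled before log2 was taken, and the difference was also computed with 3 other scalings. PRK rose by 3.19 ± 0.15 (SE) on the log2 scale after quantile scaling, with a limma adjusted p of 3.05e-09. Only 0.953% of the 3359 features had a larger difference, which put PRK at place 33 from the highest. AT3G47650 rose by 2.84 ± 0.14 (SE), with a limma adjusted p of 4.69e-09, at place 70. SBPASE did not pass, with a difference of 0.53 and an interval from 0.01 to 1.04 (limma adjusted p = 0.0755). This value depends on the floor, on which all WT samples sit, and with the floor at the 10th percentile it was 0.21 (limma adjusted p = 0.130). In this fit 26.2% of features were called higher and 29.1% lower.

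The size of the difference and its standing among all features depended on the scaling, and the direction for PRK and AT3G47650 did not. PRK was at 2.99 as deposited, 6.43 after median centring and 2.07 after cyclic loess. It stood at place 8, 6 and 276 from the highest under these scalings. AT3G47650 was at 2.19, 5.63 and 1.74, at places 36, 29 and 390. Over all features the median difference was 0.05 with quantile scaling, -2.86 with none, 0.15 with median centring and 0.01 with loess. The background also moved, with 7.38% of features called higher as deposited, 26.5% after median centring and 23.0% after loess. Higher calls made up 47.4% of all calls after quantile scaling and 9.18% as deposited. PRK and AT3G47650 passed as higher with every scaling of the 4, which held for 214 features, or 6.37%. For SBPASE, which sits on the floor in all WT samples, the fitted value follows the floor and the scaling. It was 0.0084 as deposited, 0.27 after median centring and -0.34 after loess (limma adjusted p = 0.00703), where 26.3% of features were called lower. As deposited the floor was at -6.45 on the log2 scale. Psbs replicates 1 and 5, with intensities of 0.00902 and 0.00629, were below this floor too, so only replicate 4, at 0.0119, lay above it. No deposited psbs value of SBPASE lies below WT, so the negative sign comes from what loess does to values at the floor, and none of these fits gives SBPASE a direction.

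**Figure D3:**
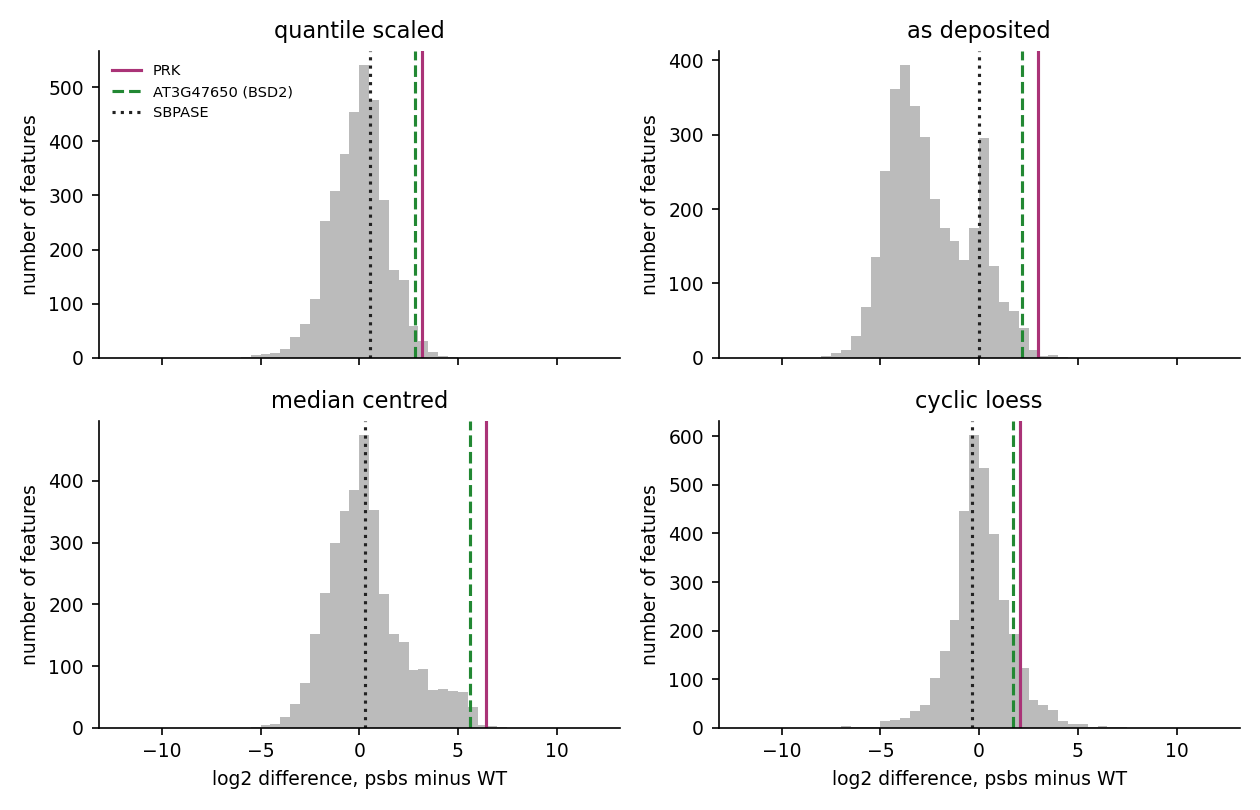
Number of features (y axis, in bins of 0.5) by log2 difference, psbs minus WT (x axis), under 4 scalings; vertical lines are PRK (solid), AT3G47650 (dashed) and SBPASE (dotted). PRK and AT3G47650 lie to the right of most features in each panel, nearest to the rest after cyclic loess, where the line for SBPASE, at the floor in all WT samples, lies below 0.

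With psbs replicates 1 and 2 left out, the mean intensity of PRK in psbs was 10.7, or 6.73 times the WT mean, against 8.18 times with all samples. For AT3G47650 it was 3.56, or 3.84 times the WT mean, against 4.63 times with all samples. The log2 differences after quantile scaling were then 2.94 for PRK and 2.51 for AT3G47650, with limma adjusted p-values of 3.70e-08 and 4.97e-09. Deviations of consecutive replicate numbers from the group mean correlated across features at 0.274 to 0.459 in WT and 0.0682 to 0.385 in psbs. Such samples may be repeats of 1 source, which would leave 3 independent values in a group in place of the 6 given here. With them averaged the adjusted p of AT3G47650 was 0.000313. As a share of the summed intensity of a sample, PRK was at 0.0494% ± 0.00634 in the WT samples and 0.501% ± 0.140 in the psbs samples (SD, n = 6 for each group). For AT3G47650 the shares were 0.0284% ± 0.00303 and 0.165% ± 0.0435 (SD, n = 6 for each group). The intensities end at 100, and at place 5 from the brightest they were 100 in every psbs sample, against 68.9 to 87.5 in WT. In WT 100 was reached at places 1 and 2 in replicates 1 and 2, and at place 1 in replicate 5. If values were cut off there, the sums of all these samples are too low, and the part of this in the shares was not tested.

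The ratio of PRK to AT3G47650 within a sample does not depend on a linear scaling. It compares how both features changed, not their transcript levels. The ratio was 1.29, 1.60, 1.71, 1.63, 2.06 and 2.31 in WT replicates 1 to 6. It was 3.18, 2.97, 2.83, 2.46, 3.52 and 3.35 in psbs replicates 1 to 6. The groups did not overlap, although the highest WT and the lowest psbs ratio lay close together. How many other pairs of features separate in this way was not counted. The curve of intensity against place was steeper in psbs, which is not a linear change, and its part in the ratio was not tested. The ratio averaged 1.77 ± 0.362 over the WT samples and 3.05 ± 0.384 over the psbs samples (SD, n = 6 for each group). In a two-sided exact permutation test the log2 difference of 0.80 had p = 0.00216, the lowest value possible with 6 against 6 samples. PRK thus gained more than AT3G47650 in deposited intensity. After quantile scaling, which is not linear, the log2 difference was 0.35 and did not pass (exact permutation p = 0.0563).

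**Figure D4:**
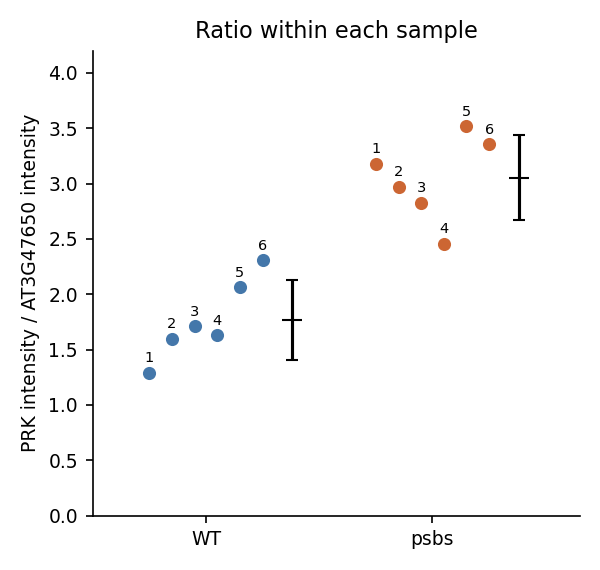
Ratio of the deposited intensity of PRK to that of AT3G47650 (linear axis from 0) in each WT and psbs sample; numbers are replicate numbers, and black marks are the mean and SD of 6 samples. WT ratios run from 1.29 to 2.31 and psbs ratios from 2.46 to 3.52.

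Few other genes of the pathway could be read. Of the 22 enzymes of the Calvin cycle listed, 2 had a feature to themselves, PRK and SBPASE, and 1 was called higher, where 26.2% of all features were. Neither the small nor the large subunit of Rubisco was among them. Of 16 genes for Rubisco assembly and activation, 3 were measured, of which 1 was called higher, 1 lower and 1 neither, against 26.2% higher and 29.1% lower over all features. They went in different directions, and their median, 0.38 on the log2 scale against 0.05 for all features, is the value of the gene that was not called. As deposited 1 was called higher and 2 lower, where 73.0% of all features were called lower. A further 3 of the 16 lay only on features of several genes and are not named here.

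The other measured genes of that list encode subunits of the plastid chaperonin. Rubisco large subunits fold in the chamber of the chaperonin before BSD2 binds them. Whether the subunits measured here take part in that folding cannot be read from these data. Cpn60beta4 (AT1G26230) was at 0.299 to 0.383 in WT, with a median of 0.329. In psbs it was listed at 0 in 3 samples and reached at most 0.0291. It fell by 1.11 on the log2 scale after quantile scaling (limma adjusted p = 0.00886) and did not pass after loess, at -0.60 (adjusted p = 0.0695). It was called lower at -1.68 after median centring (adjusted p = 0.00556) and at -4.56 as deposited. Cpn60beta3 (AT5G56500) was at 0.347 to 0.637 in WT and 0.0472 to 0.120 in psbs, without overlap, which held in this direction for 67.3% of all features. After quantile scaling its log2 difference was 0.38 and did not pass (limma adjusted p = 0.0954). It was called lower as deposited, at -2.43, and higher after median centring, at 1.01, and after loess, at 0.62.

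Genes that act on the cycle from outside were scarcer still. Of 13 genes for its redox control, 2 were measured: AT2G04700, which encodes the catalytic part of the reductase that passes electrons from ferredoxin to thioredoxin, was called higher (log2 difference 3.62, limma adjusted p = 3.99e-11), and NTRC, a thioredoxin reductase with its own thioredoxin domain, was not (0.37, adjusted p = 0.479). As deposited NTRC was called lower, at -2.58 (limma adjusted p = 0.00179). Over all features 26.2% were called higher after quantile scaling and 73.0% lower as deposited. Of 13 genes of photorespiration, which recycles the product of oxygen fixation by Rubisco, 1 had a feature to itself. This was AT1G32080, named LrgB in the annotation, the plastid exporter of glycolate and importer of glycerate, and it was listed at 0 in all 12 samples. Of 5 plastid proteins with a DnaJ-type zinc finger, AT3G47650 was the 1 measured. None of 5 genes of triose phosphate export and starch synthesis, or of 7 seed and root markers, had one.

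The features most like PRK and AT3G47650 were sought among the 258 other features of a single gene that were above 0 in all 12 samples. Likeness was the Pearson correlation of scaled log2 values over the 12 samples. For PRK the highest were AT3G22150 at 0.991, AT3G54210 at 0.990, AT2G04700 at 0.989, AT1G51080 at 0.988 and AT2G21530 at 0.986. For AT3G47650 they were AT3G54210 at 0.996, AT3G22150 and AT1G54500 at 0.994, AT1G51080 at 0.994 and AT1G28150 at 0.993. PRK and AT3G47650 correlated at 0.986 with each other, at place 6 in the order for PRK and place 12 in that for AT3G47650. Since the 12 points fall into 2 groups, these values mostly restate the difference between WT and psbs, and 67 candidates exceeded 0.9 with each gene.

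Computed on deviations from the group means, the correlations were lower. For PRK they ran from 0.0505 with AT2G04700 to 0.586 with AT3G22150, and for AT3G47650 from 0.616 with AT1G54500 to 0.825 with AT3G54210. Some of these pairs differed in sign between the groups. AT3G47650 was at 0.963 with AT3G54210 and 0.969 with AT1G51080 within psbs, but at -0.487 and -0.367 within WT. PRK was at -0.945 with AT2G21530 within psbs and at 0.694 within WT. Its values with AT2G04700 and AT1G51080 also differed in sign. The rest of these pairs were positive within both groups. PRK and AT3G47650 correlated at 0.261. Within psbs they correlated at 0.860, with replicates 1 and 2 high in both, and within WT at -0.665, where PRK was highest in replicate 6 and AT3G47650 in replicate 1. AT3G54210 encodes plastid ribosomal protein L17 and had deposited intensities of 0.545 ± 0.0488 in WT and 1.06 ± 0.398 in psbs (SD, n = 6 for each group). AT3G22150 had a scaled log2 difference of 2.25 while its deposited intensity was 0.114 ± 0.0225 in WT and only 0.0689 ± 0.0154 in psbs (SD, n = 6 for each group). Its likeness to PRK and AT3G47650 thus holds after quantile scaling and not for the direction as deposited.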

How the data were processed

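Linear intensities, 1 per feature and sample, were used as deposited by the authors. How they were scanned, corrected and scaled, and what a 0 stands for, is not given in the sources used here. The groups and replicate numbers came from sample titles, and gene names from the platform annotation, matched by gene ID to the TAIR10.1 gene table for names only. Columns were quantile scaled with 0 values kept at 0, raised to the 5th percentile of positive scaled values (0.0559) and log2 transformed, which understates changes of dim features. limma 3.58.1 in R 4.3.3 compared 6 psbs with 6 WT samples, on log2 values and on percentiles within samples, over 3359 features with Benjamini-Hochberg adjustment and a threshold of 0.05. The fits were tested on simulated data in which only a small set of features differed. The simulation lacked the differences in median and in features at 0 seen between these groups, so it does not cover them. The ratio of PRK to AT3G47650 was compared by an exact permutation test. Intervals are 95% intervals of the limma fit. Alternatives changed the scaling, floor, filter, features ranked, block, weights, variance prior and samples. Plots used matplotlib 3.10.9 under Python 3.11.15.

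The genes and lists were chosen with earlier results of these data known. Named are the 3 genes, every gene of 7 lists on a feature of a single gene, and the 5 features most correlated with each gene above 0 in at least 10 samples, which left out SBPASE. No build is named for the array, so no coordinates are given. Precision is limited by the 6 samples in a group, or by 3 if consecutive replicate numbers are repeats of 1 source. Their limma consensus correlation was 0.473. Deviations of psbs replicates 3 and 4 correlated at only 0.0682, and those of psbs replicates 5 and 6 at 0.0749. Other pairs within a group were not compared with them.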

Additional observations from a re-analysis of the deposited data

Results flagged for a closer look

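For the 8 genes of the lists with a feature of a single gene, and for the ratio of PRK to AT3G47650, each group of 6 samples was examined for a sample far from the other 5. Of the 41 groups with any spread, on intensity, percentile and scaled log2 values, 0 held such a sample, where chance alone picks about 5% of groups. The search was for 1 sample, so samples that are high together can be missed, such as psbs replicates 1 and 2 for PRK and AT3G47650. These measures come from the same values, so the groups are not independent.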

How the results depend on the processing

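PRK and AT3G47650 stayed called higher on the log2 scale under all 24 alternatives run, from 2.07 to 6.43 and from 1.74 to 5.63, with adjusted p-values up to 0.000274 and 0.000313. The percentile of AT3G47650 stayed called under all 17, and that of PRK under 16 of 17. With consecutive numbers averaged, which leaves the difference of 6.62 points as it is, PRK lost its call (adjusted p = 0.0537). SBPASE was at -0.34 after cyclic loess, a sign that comes from values at the floor, since no psbs sample lies below the WT samples, all at 0. With the floor at the 10th percentile it was 0.21. It passed at 0.53 with consecutive numbers averaged (adjusted p = 0.0207) and at 0.50 with sample weights (adjusted p = 0.0306), but not with consecutive numbers as a random block (adjusted p = 0.287). Each average in psbs joins a replicate above 0 (1, 4 or 5) with one at 0 (2, 3 or 6), which narrows the spread. Leaving out 1 sample gave SBPASE 0.41 to 0.67, and it passed without psbs replicates 2, 3 or 6, each a sample where it is at 0. Leaving out 1 sample gave SBPASE a percentile difference of 13.5 to 21.3 points. It passed without psbs replicates 2, 3 or 6, at 21.3 points each, and with consecutive numbers averaged, at 17.8 points. It had no value with 0 values missing, without the dimmest features, or ranked among features above 0 in all samples. The log2 ratio of PRK to AT3G47650 was 0.35 after quantile scaling (exact permutation p = 0.0563). With consecutive numbers averaged it was 0.80 at p = 0.1, the smallest exact p that 3 against 3 allow. Leaving out 1 sample gave 0.72 to 0.89. Percentile calls numbered 1674 of 3359 features, 1040 of 1407 above 0 in all samples and 314 of 674 of a single gene, sets that differ in size and make-up. Why the share called differs between these sets was not tested, nor was the cause of the other changes.

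The labels do not say that a replicate number pairs WT with psbs. Deviations of same-numbered samples correlated at 0.0569 to 0.154, over 0.1 in 5 of 6 pairs. Pairs of unlike numbers were not compared with them, so these values do not decide whether the number is a pairing. The main fits left the number out. With it as a block, limma called 1833 features on the log2 scale instead of 1859 and 1582 on percentiles, PRK had adjusted p = 8.31e-06, AT3G47650 4.84e-06 and SBPASE 0.0910, and no call of the 3 genes changed. For the ratio, an exact sign-flip test over the replicate block gave p = 0.0312, the smallest value that this test can give with 6 pairs. Deviations of consecutive numbers within a group correlated at 0.0682 to 0.459.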
